A study of Homo sapiens with 4 samples.

Results

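The HES, HEY and NRARP genes include classical targets and feedback regulators of the Notch pathway. Of the HES, HEY and NRARP genes, 9 were followed through hematopoietic differentiation of human pluripotent stem cells. They were HES1, HES2, HES4, HES6, HES7, HEY1, HEY2, HEYL and NRARP, chosen by gene symbol from a table of 58274 genes, and each was found on a single row. The samples were undifferentiated cells of BC1, an induced pluripotent stem cell line of human origin, and 3 populations sorted from the differentiating BC1 culture, namely APLNR+ mesoderm cells of day 2, CD31+CD34+ hemogenic endothelial progenitors (HEPs) of day 5 and CD43+ hematopoietic progenitor cells (HPCs) of day 8. The culture received activin A and BMP4 first and VEGF and bFGF afterwards. Every population came from this 1 line and was sequenced as 1 library, so no difference has a replicate check, no test was run and the intervals below cover counting error only.

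When a Notch ligand on one cell binds a Notch receptor on its neighbour, the receptor is cut and its intracellular part enters the nucleus, where it joins the DNA-binding protein RBPJ and Mastermind proteins and activates HES and HEY genes. The products of most of these genes are basic helix-loop-helix (bHLH) repressors, and NRARP is a small ankyrin repeat protein that limits the activity of the Notch intracellular domain. In the embryo, Notch signaling is known for arterial specification of endothelium and for the emergence of blood stem cells from hemogenic endothelium. HES and HEY genes also respond to other inputs, among them BMP signaling, so their levels alone do not measure Notch activity.

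Values are FPKM, that is, mapped fragments scaled to transcript length in kilobases and to 1000000 fragments of the library, so levels can be compared between genes. Where 4 levels follow each other, they stand in the order of differentiation, BC1, APLNR+, CD31+CD34+ and CD43+. Changes are differences of log2(FPKM + 1), a scale that understates the fold change of low genes, and a gene is said to rise or fall where the difference was at least 1. Depth recovered from the table was between 19620000 and 23620000 mapped fragments. The sorting marker genes followed the labels, with APLNR at 0.782, 1073, 209 and 25.05 FPKM, PECAM1 (CD31) at 0.303, 0.460, 93.1 and 126 FPKM, CD34 at 0.236, 0.645, 102 and 42.6 FPKM and SPN (CD43) at 1.06, 0.294, 11.7 and 92.4 FPKM. Among the stage markers, POU5F1 was highest in BC1, MIXL1 and EOMES in APLNR+, CDH5 and TIE1 in CD31+CD34+, and GATA1 and SPI1 in CD43+. In CD31+CD34+, GATA1 and SPI1 were already at 13.4 and 32.0 FPKM. The part of blood-committed cells in the levels of that library was not tested. The BC1 and APLNR+ libraries had GATA1 listed at 0, as was SOX2 in CD31+CD34+ and CD43+, and EOMES in CD43+.

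Stretches before a RefSeq transcript start of 4 of the genes are shown because RBPJ is the factor through which Notch acts on them. Promoter sequences (250 bases before to 50 after the transcript start, RefSeq, GRCh38.p14) were found for 8 of the 9 genes, all but HEY1. These starts can differ from those of the gene spans given below. The HEY2 stretch lies wholly within the span of HEY2, and 25 bases of the HES4 stretch lie in annotated exons. The letters GTGGGAA, a form of the sequence that RBPJ binds, were searched on both strands. They were present in 4 of the 8 promoters, those of HES1, HES4, HEY2 and HEYL, and in 6.28% of 27303 promoters of the same length. The shorter core TGGGAA, which lies within GTGGGAA, was present in the same 4 promoters and in 24.3% of all promoters. Capitals mark the letters GTGGGAA, or TTCCCAC where the match is on the opposite strand. The NRARP stretch is shown for contrast as one without them.
HES1 (chr3:194136023-194136109, + strand): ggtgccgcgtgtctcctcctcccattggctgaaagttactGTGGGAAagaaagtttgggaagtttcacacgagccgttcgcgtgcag
HES4 (chr1:1000148-1000214, - strand): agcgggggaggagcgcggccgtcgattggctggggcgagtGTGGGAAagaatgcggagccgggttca
HEY2 (chr6:125749382-125749465, + strand): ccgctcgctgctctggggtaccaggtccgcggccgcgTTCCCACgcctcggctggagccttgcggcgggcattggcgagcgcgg
NRARP (chr9:137302272-137302421, - strand): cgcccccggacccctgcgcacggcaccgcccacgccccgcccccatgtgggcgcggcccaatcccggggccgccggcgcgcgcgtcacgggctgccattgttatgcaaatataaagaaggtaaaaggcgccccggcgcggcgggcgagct

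The match in HES1 began 85 bases before the RefSeq start, and a TGGGAA on the same strand began 70 bases before it. The match in HES4 began 77 bases before the start, and 5 of its bases lie in an annotated exon. HES1 and HES4 were the only 2 of the 9 genes with their highest level in CD43+, and a link to these matches was not tested. HEY2 had matches that began 213 and 4 bases before the start, and the match in HEYL began 178 bases before it. The second HEY2 match and the HEYL match lie within annotated exons and are not shown. HEY2 and HEYL, with the same letters, were at 2.32 and 0.713 FPKM in CD43+. CACGNG, a core to which HES and HEY repressors can bind, was found in HES1, HES7 and NRARP (3 of 8, against 30.4% of all promoters), and TATAAA in HES6 and NRARP (2 of 8, against 12%). A match is a description of the sequence, and binding was not measured here.

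The repressor genes of the HES family were examined first. HES1 encodes the best known Notch-induced repressor and lies on chromosome 3 (ENSG00000114315.3, 194136145 to 194138732, + strand, up to 4 exons). Its level was 4.81 FPKM in undifferentiated BC1 cells, 21.2 FPKM in APLNR+ cells, 25.6 FPKM in CD31+CD34+ cells and 32.2 FPKM in CD43+ cells. HES1 thus had its main increase at the first transition, and each later population was higher than the one before. The first difference was 4.40-fold (95% interval 3.62 to 5.38), and the next ones were 1.21-fold (1.09 to 1.35) and 1.26-fold (1.14 to 1.38). When each library was centred on its median, the second difference was 0.140 on the log2 scale in place of 0.264. The 95% counting error of that difference was 0.147 to either side. From 125 to 899 fragments supported these levels.

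HES4, a close relative of HES1, lies on chromosome 1 (ENSG00000188290.10, 998962 to 1000172, - strand, up to 4 exons). The BC1 library had 3.71 FPKM of HES4, the APLNR+ library 6.26, the CD31+CD34+ library 45.0 and the CD43+ library 153 FPKM. HES4 had the widest range of the 8 genes that reached 1 FPKM, with CD43+ 41.2-fold (30.8 to 56.1) above BC1. It was 1.69-fold higher (1.17 to 2.46) in APLNR+ than in BC1, rose 7.19-fold (5.71 to 9.08) from APLNR+ to CD31+CD34+ and rose again 3.39-fold (3.11 to 3.71) from CD31+CD34+ to CD43+. It was the only member that rose at the last transition. The 3 coding transcripts of HES4 are short, from 667 to 1040 bases, so that its FPKM depends strongly on which of them is taken.

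HES7 encodes a repressor best known as an oscillator of the somite segmentation clock and lies on chromosome 17 (ENSG00000179111.8, 8120590 to 8124092, - strand, up to 5 exons). HES7 was at 0.156, 0.792, 3.23 and 1.57 FPKM. Its highest level was therefore in CD31+CD34+, and it stayed low throughout. BC1 and APLNR+ could not be told apart (5.09-fold, 0.834 to 292) with the median coding transcript, though they could with the longest. HES7 rose 4.07-fold (1.76 to 11.0) into CD31+CD34+ and was 2.05-fold lower (1.06 to 4.39) in CD43+. These values rest on about 1 to 30 fragments with the median coding transcript and on 4 to 106 with the longest. HES2, a repressor gene on chromosome 1 (ENSG00000069812.11, 6412418 to 6424670, - strand, up to 4 exons), did not reach 1 FPKM. It was at 0.623, 0.333, 0.0425 and 0.105 FPKM, or 9, 5, 1 and 2 fragments with the median coding transcript, and on these counts no consecutive populations could be told apart.

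HES6 is an atypical family member that is known to oppose HES1 rather than to act as a Notch-induced repressor. It lies on chromosome 2 (ENSG00000144485.10, 238238267 to 238240662, - strand, up to 4 exons). BC1 cells had 63.0 FPKM of HES6, APLNR+ cells 62.0, CD31+CD34+ cells 25.1 and CD43+ cells 34.9 FPKM. The first 2 populations could not be told apart (0.983-fold, 0.879 to 1.10), and the gene then fell 2.47-fold (2.14 to 2.86) into CD31+CD34+. It was 1.39-fold higher (1.18 to 1.64) in CD43+ than in CD31+CD34+. HES6 was the only member that fell at the second transition, where HES4, HES7, HEY1 and NRARP rose.

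**Figure D1:**
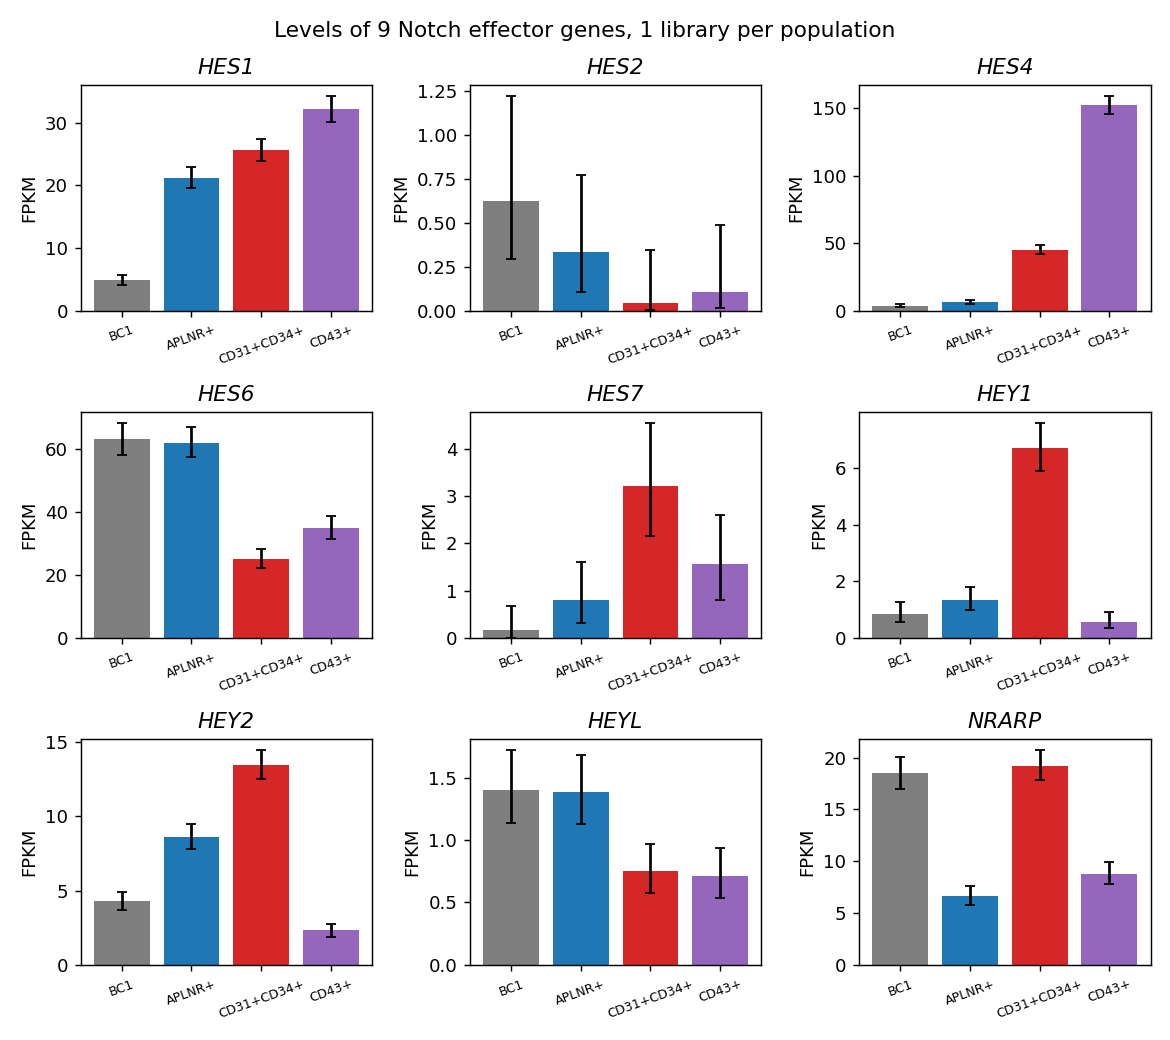
FPKM (vertical axes, each panel with its own scale) of the 9 genes in the 4 populations (horizontal axes). Bars are the value of 1 library and error bars the exact 95% Poisson interval of the estimated fragments, which covers counting error only. HES1 and HES4 are highest in CD43+, at 32.2 and 153 FPKM, while HEY1, HEY2 and HES7 are highest in CD31+CD34+.

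The HEY genes encode HES-related repressors that are known for arterial and cardiac development. HEY1 (ENSG00000164683.16, chromosome 8, 79764010 to 79767863, - strand, up to 5 exons) was at 0.849, 1.32, 6.70 and 0.566 FPKM. The CD31+CD34+ library stood apart from the other 3. HEY1 rose 5.07-fold (3.65 to 7.14) into CD31+CD34+ and fell 11.8-fold (7.27 to 19.6) into CD43+, and its levels in BC1 and CD43+ could not be told apart (0.667-fold in CD43+ over BC1, 0.354 to 1.27).

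HEY2 (ENSG00000135547.8, chromosome 6, 125747664 to 125761269, + strand, up to 5 exons) had 4.30 FPKM in BC1 cells, 8.62 in APLNR+ cells, 13.5 in CD31+CD34+ cells and 2.32 FPKM in CD43+ cells. Its level was higher in each population up to CD31+CD34+ and lowest in CD43+. The differences were 2.00-fold (1.69 to 2.39) and 1.56-fold (1.39 to 1.77), neither of which passed 1 on the log2 scale, and then a fall of 5.80-fold (4.77 to 7.15). HEYL (ENSG00000163909.7, chromosome 1, 39624153 to 39639945, - strand, up to 5 exons) was low, at 1.40, 1.38, 0.752 and 0.713 FPKM. It was 1.84-fold lower (1.33 to 2.58) in CD31+CD34+ than in APLNR+, while its other neighbours in the order could not be told apart. HEYL therefore did not share the high level of HEY1 and HEY2 in CD31+CD34+. Genes on the opposite strand lie within the spans of HES6, HEY2 and HEYL but share no exon with them. They had at most 0.0451, 1.01 and 0.953 FPKM, respectively, in the 4 libraries.

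NRARP, the feedback inhibitor, is a gene of 1 exon on chromosome 9 (ENSG00000198435.3, 137300482 to 137302251, - strand). Its level was 18.5 FPKM in undifferentiated BC1 cells, 6.64 in APLNR+ cells, 19.2 in CD31+CD34+ cells and 8.78 FPKM in CD43+ cells. The gene alternated between higher and lower levels, and BC1 and CD31+CD34+ could not be told apart (1.04-fold, 0.929 to 1.17). It fell 2.78-fold (2.37 to 3.27), rose 2.89-fold (2.48 to 3.39) and fell 2.19-fold (1.90 to 2.52). The last change, -1.05 on the log2 scale, no longer reached -1 when each library was centred on its median.

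**Figure D2:**
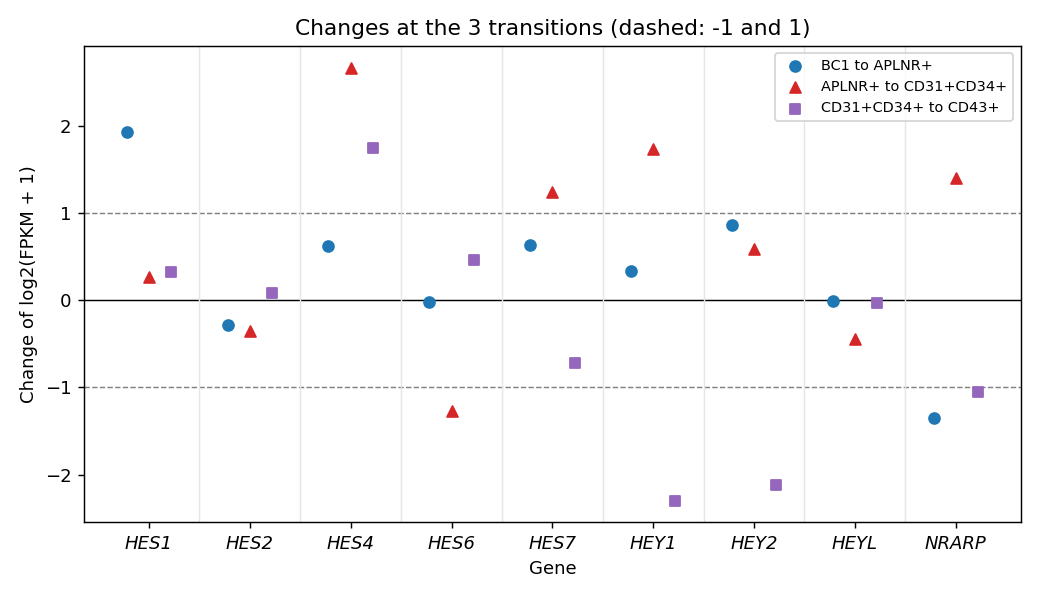
Change of log2(FPKM + 1) (vertical axis) of each gene (horizontal axis) at the 3 consecutive transitions, 1 point per gene and transition from 1 library each. Dashed lines mark changes of -1 and 1. From CD31+CD34+ to CD43+, HEY1, HEY2 and NRARP lie below -1 and HES4 above 1.

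Counts over the members were then set beside those over all genes. Of the 9 members, 8 had at least 1 FPKM in at least 1 library, which all members but HES2 reached, and so did 17137 genes of the table. From BC1 to APLNR+, 1 of the 8 rose (HES1), against 9.15% of all genes, and 1 fell (NRARP), against 9.32%. From APLNR+ to CD31+CD34+, 4 of the 8 rose (HES4, HES7, HEY1 and NRARP), against 13% of all genes, and 1 fell (HES6), against 11.4%. When each library was centred on its median, the shares of all genes were 10.9% and 13.7% at this transition, with the same members called. From CD31+CD34+ to CD43+, 1 rose (HES4), against 7.63%, and 3 fell (HEY1, HEY2 and NRARP), against 13.5%. Rises were thus 36% of all changes past the threshold at the last transition, and 48.9% when each library was centred on its median. The median change of the 8 genes was 0.48, 0.91 and -0.37 at the 3 transitions, and that of all genes was 0.00, 0.01 and -0.08. Successive transitions share a library, so a high level in CD31+CD34+ enters both the rises before it and the falls after it.

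The make-up of the family differed between the populations. The summed level of the 9 genes was 97.4, 109, 139 and 234 FPKM. HES6 made up 64.7% of the sum in BC1 and 57.1% in APLNR+, shares that depend on the length taken for its coding transcripts of 474 to 1600 bases, and NRARP was next in BC1 with 19%, whereas HES1 was next in APLNR+ with 19.5%. In CD31+CD34+ the sum was spread more evenly, with 32.4% from HES4, 18.4% from HES1, 18% from HES6, 13.8% from NRARP and 9.67% from HEY2. In CD43+, HES4 alone made up 65.3%. The 3 HEY genes together were at 6.56, 11.3, 20.9 and 3.60 FPKM and the 5 HES genes at 72.3, 90.5, 99.0 and 221 FPKM, so that the ratio of HES to HEY was lowest in CD31+CD34+, at 4.74, and highest in CD43+, at 61.5.

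**Figure D3:**
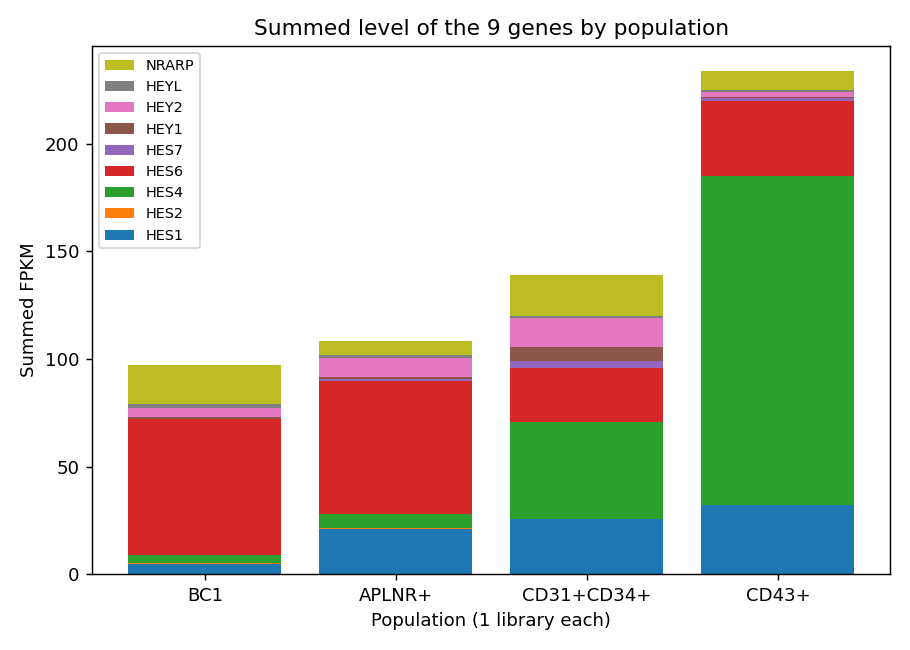
Summed FPKM (vertical axis) of the 9 genes in the 4 populations (horizontal axis), with each gene as a coloured segment, 1 library per population. HES6 is the largest segment in BC1 and APLNR+ and HES4 in CD31+CD34+ and CD43+, where it makes up 65.3% of the sum.

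The upstream genes of the pathway were followed in the same libraries. Of the 4 Notch receptor genes, none changed by 1 from BC1 to APLNR+, where 9.15% of all genes rose and 9.32% fell. NOTCH1 and NOTCH4 rose from APLNR+ to CD31+CD34+, against 13% of all genes. NOTCH1, NOTCH3 and NOTCH4 fell from CD31+CD34+ to CD43+, against 13.5% of all genes. NOTCH1 was at 22.7, 13.8, 128 and 24.4 FPKM, NOTCH3 at 36.4, 29.1, 41.0 and 8.11 FPKM, NOTCH4 at 0.243, 0.0747, 3.42 and 0.258 FPKM and NOTCH2 at 6.90, 9.34, 5.56 and 5.17 FPKM. NOTCH1, like HEY1, HEY2 and HES7, was highest in CD31+CD34+.

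Among the ligands, 4 of 5 genes reached 1 FPKM, and DLL1 did not exceed 0.834 FPKM. DLL4, the ligand of arterial endothelium, was at 0.131, 0.420, 18.0 and 1.77 FPKM, a rise of 42.8-fold (29.2 to 63.1) into CD31+CD34+ and a fall of 10.2-fold (8.42 to 12.3) into CD43+. JAG2 fell from 5.66 to 1.80 FPKM, rose to 26.2 FPKM and fell to 6.72 FPKM. DLL3, a ligand homologue that is known to act within the cell that makes it, was at 7.17, 137, 4.33 and 1.26 FPKM and so was highest in APLNR+, where NRARP was lowest. JAG1 did not exceed 6.45 FPKM and did not change by 1 at any transition.

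The genes that link receptor cleavage to transcription came next. Of 8 genes of the cleaving proteases, PSEN2 and APH1B fell at the first transition, against 9.32% of all genes. None changed by 1 at the later ones, where 13% and 7.63% of all genes rose and 11.4% and 13.5% fell. Of 11 genes of the RBPJ complex and its coregulators, RBPJ itself fell from 59.6 FPKM in BC1 to 27.9 FPKM in APLNR+ and was then at 27.0 and 28.1 FPKM. It was the only one of the 11 that fell from BC1 to APLNR+, against 9.32% of all genes. MAML2, a Mastermind coactivator gene, and KAT2B, an acetyltransferase gene, rose at the second transition, from 0.226 to 2.35 FPKM and from 0.654 to 3.29 FPKM. Of all genes, 13% rose there. MAML2 then fell to 0.407 FPKM. The levels of RBPJ in the CD31+CD34+ and CD43+ libraries could not be told apart (1.04-fold, 0.879 to 1.24). Its activity on the HES and HEY genes was not tested.

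Of 17 genes of receptor glycosylation and trafficking, 16 reached 1 FPKM. The numbers that rose and fell were 1 and 4, then 3 and 1, then 1 and 5. The shares of all genes were 9.15% and 9.32%, then 13% and 11.4%, then 7.63% and 13.5%. LFNG, a fringe glycosyltransferase that alters which ligands a receptor answers to, was at 18.9, 1.72, 31.8 and 1.86 FPKM. It fell, rose and fell at the same transitions as NRARP, by 11.0-fold (8.44 to 14.3), 18.5-fold (14.3 to 23.9) and 17.1-fold (13.3 to 21.9). MFNG, another fringe gene, rose from 0.363 to 57.7 FPKM into CD31+CD34+ and was still at 32.7 FPKM in CD43+. DTX1, a Deltex gene, was at 5.10, 6.72, 1.12 and 0.0245 FPKM, and DTX3L rose from 0.705 to 16.9 FPKM into CD43+.

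HES repressors can recruit TLE corepressors, and ID proteins bind bHLH partners without binding DNA. TLE3 rose from 14.4 FPKM in BC1 to 98.2 FPKM in APLNR+ and fell to 25.8 FPKM in CD31+CD34+. TLE1 fell at the second transition, from 32.7 to 6.43 FPKM, and TLE2 at the last, from 35.5 to 1.90 FPKM. TLE4 was at 7.31, 12.4, 17.1 and 24.3 FPKM, and AES at 209, 242, 361 and 248 FPKM. ID1, ID2 and ID3 rose together into CD31+CD34+, to 636, 321 and 159 FPKM, and fell in CD43+ to 18.7, 67.3 and 3.30 FPKM. Among all genes, 13% rose into CD31+CD34+ and 13.5% fell into CD43+. ID4 was at 3.95, 11.0, 12.0 and 7.19 FPKM. ID1, ID2 and ID3 thus had their highest level in CD31+CD34+, where HEY1 and HEY2 were also highest. The levels of ID4 in APLNR+ and CD31+CD34+ could not be told apart (1.09-fold, 0.964 to 1.23).

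**Figure D4:**
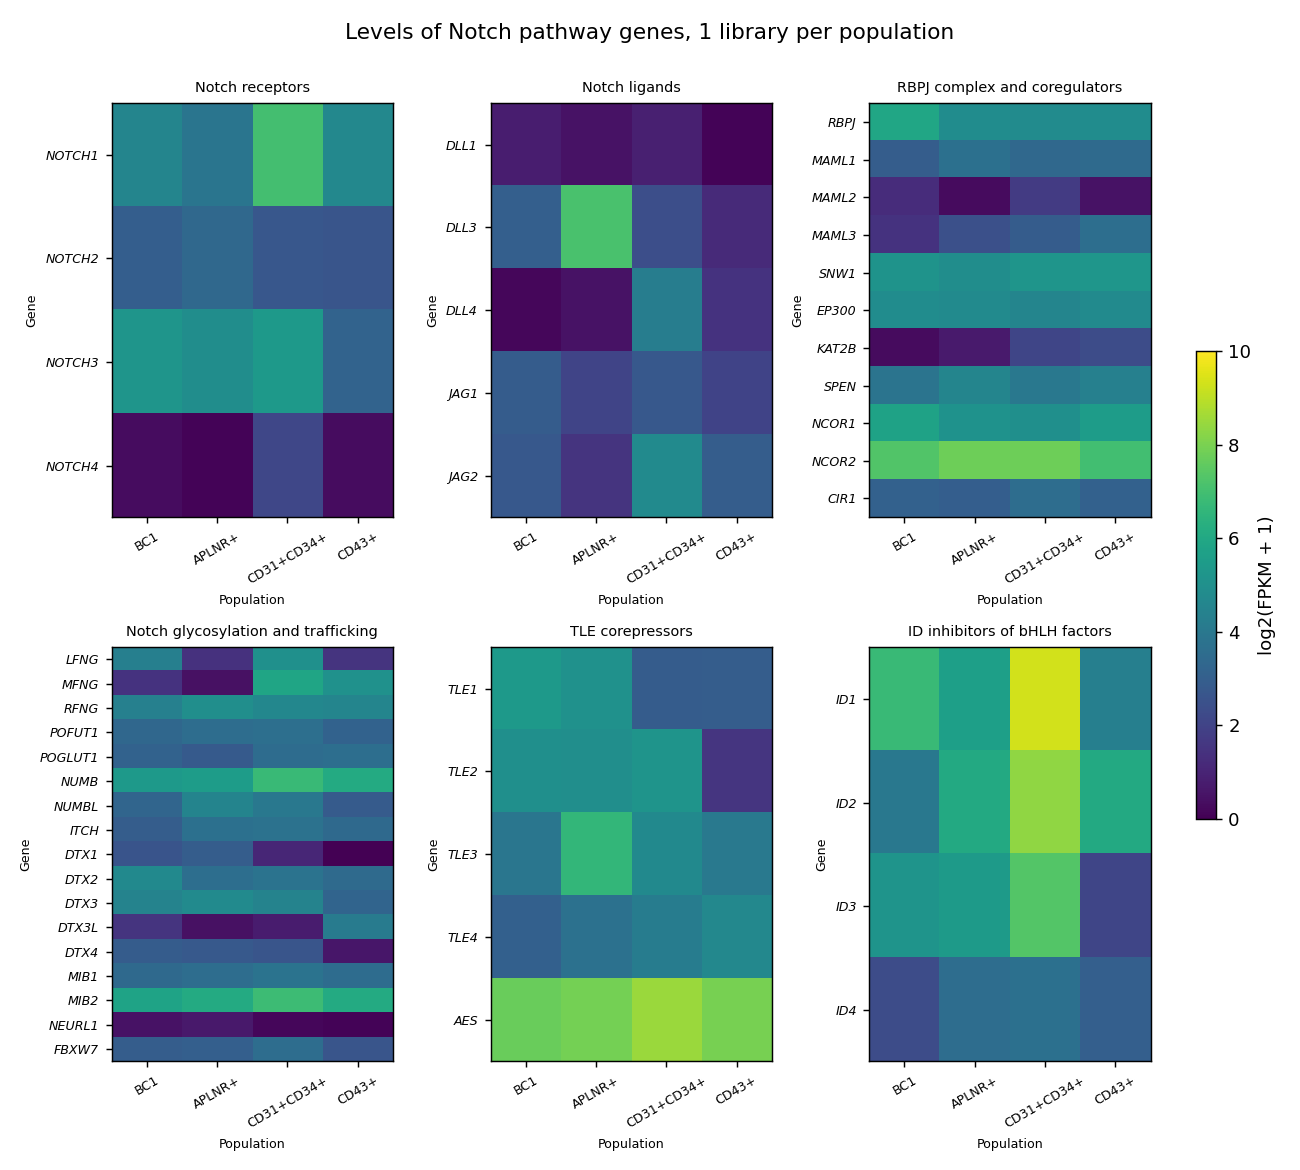
log2(FPKM + 1) (colour) of genes of the Notch pathway and of partners of bHLH factors (rows) in the 4 populations (columns), 1 library each. NOTCH1, NOTCH4, DLL4, JAG2, LFNG, MFNG, ID1, ID2 and ID3 are highest in CD31+CD34+, and RBPJ is highest in BC1.

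Endothelial genes were compared because HEY1 and HEY2 are genes of arterial endothelium. Of 10 arterial genes, 9 reached 1 FPKM, and 6 of them rose into CD31+CD34+, against 13% of all genes. None of the 9 fell by 1, against 11.4% of all genes, though SOX17 and UNC5B were lower in CD31+CD34+ than in APLNR+. From CD31+CD34+ to CD43+, 7 fell, against 13.5% of all genes, and 1 rose, against 7.63%. The latter was GJA4, from 49.4 to 151 FPKM. The summed level of the arterial list was 32.3, 75.2, 426 and 187 FPKM. Its largest parts in CD31+CD34+ were SOX18 (140 FPKM) and SOX7 (84.5 FPKM), and most of it in CD43+ was GJA4. EFNB2, at 4.42, 6.82, 8.84 and 5.12 FPKM, did not change by 1 at any transition, and CXCR4 did not reach 1 FPKM. Of 5 venous genes, 4 rose into CD31+CD34+, against 13% of all genes, and 4 fell into CD43+, against 13.5%. Their summed level was 77.5, 1267, 714 and 85.7 FPKM, most of it APLNR in APLNR+. NR2F2, the venous transcription factor, was at 0.0506, 0.211, 23.4 and 1.34 FPKM, EPHB4, the venous ephrin receptor, at 65.3, 72.9, 222 and 32.0 FPKM, NRP2 at 11.4, 120.3, 256 and 22.9 FPKM and EMCN at 0, 0.151, 3.44 and 4.36 FPKM. EMCN was listed at 0 in BC1, and no other gene of these lists was listed at 0 in any library. In such bulk samples fewer cells of a type and less RNA per cell cannot be told apart, and the part of residual endothelial cells in the levels of HEY1 and HEY2 in CD43+ was not tested.

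Genes with the most similar course were sought for the 5 members that reached 10 FPKM, by the Euclidean distance between profiles of log2(FPKM + 1), each centred on its own mean over the 4 libraries, among 13910 protein-coding genes. For HES1 these were DAAM1 (distance 0.0860), MLLT6 (0.144) and FBRS (0.244). For HES6 they were THOC6 (0.0272), LTV1 (0.0347) and HNRNPAB (0.0469), all within 0.05. For HEY2 they were NOL3 (0.0773), CLIC6 (0.0962) and GALNT8 (0.106), and for NRARP they were ITLN2 (0.195), RASAL2 (0.207) and LAMA5 (0.221). HES4 had no such close neighbour, the nearest being AKR1C1 (0.468), EMP3 (0.496) and ASIC4 (0.533). Profiles were not scaled, so distances tend to grow with the range of a gene, which was widest in HES4. AKR1C1 was at 2.36, 3.27, 21.1 and 107 FPKM. With 4 points per profile, such likeness is a description of these libraries.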

How the data were processed

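The authors deposited gene-level FPKM values for 4 libraries of total RNA (Illumina TruSeq). The submitters' processing notes name BWA, Bowtie, RSEM and hg19 without roles. The loci, however, matched GENCODE release 29 on GRCh38 (55647 of 58274 gene identifiers had the same version, 55645 also an identical span), and positions are therefore on GRCh38, counted from 1. Strand and filters are not given in the sources used here. Rows of one identifier were summed.

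Depth was recovered from the steps between low FPKM values of genes with 1 transcript of at least 1000 bases. Between 84% and 85.9% of these values lay within 0.1 of a whole number of fragments. Fragments per gene used the median coding transcript, and fold intervals are exact Clopper-Pearson 95% intervals, checked on simulated data. Values were analysed as log2(FPKM + 1), keeping genes that reached 1 FPKM in any library. The members and lists were chosen with earlier results of these data known. Named genes were the members, all genes of lists of up to 5, at most 3 per direction of longer lists, and the 3 genes most alike each member of at least 10 FPKM. More genes of the arterial list are named to show its make-up. Alternatives changed the pseudocount, filter, threshold, scaling, row sums and transcript length. Python 3.11.15, pandas 2.3.3 and scipy 1.17.1 were used.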

Additional observations from a re-analysis of the deposited data

How the results depend on the processing

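The counts of members that rose and fell were recomputed under 7 other settings. With a pseudocount of 0.1, 2 members rose from BC1 to APLNR+, HES7 being added to HES1, against 13.6% of all genes. With a change of at least 2, 0 members rose and 0 fell from BC1 to APLNR+, against 2.68% and 2.29% of all genes. From APLNR+ to CD31+CD34+, 1 rose (HES4) and 0 fell, against 4.08% and 3.15%. From CD31+CD34+ to CD43+, 0 rose, against 2.28%, and HEY1 and HEY2 still fell, against 4.32%. Of the 42 recomputed counts, the other 36 stayed within 1.5 times the reported count, and no change of a member that had risen or fallen reversed its sign. Scaling each library to a total of 1000000 moved the median change of all genes from -0.08 to -0.17 at the last transition, and centring moved it to 0.10 there and to -0.11 at the second. After centring, NRARP did not fall by 1 at the last transition. With the scaled totals HEYL was highest in APLNR+ in place of BC1. With the longest transcript, 4 of 27 fold intervals came to exclude 1, those of HES2 at the first and second transitions and of HES7 and HEY1 at the first. Estimated fragments scale with the length taken, so a longer transcript gives more fragments and a narrower interval at the same fold. The cause of the other differences was not tested. No paired analysis was possible because each population had 1 library, and none could be left out. HES2 and HES7 are limited by depth.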

Other observations

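Relatives of the HES family that were no members differed in which population they marked. HES3 was at 18.5 FPKM in BC1 and listed at 0 in APLNR+, CD31+CD34+ and CD43+, which makes BC1 at least 55.4-fold higher against a floor of 3 fragments per library. BHLHE40, a bHLH repressor known from hypoxia and circadian control, rose from 0.680 to 21.0 FPKM in APLNR+ (30.9-fold, 22.8 to 42.8), fell to 3.81 FPKM in CD31+CD34+ and had 3.57 FPKM in the CD43+ library. HES5 and BHLHE41 stayed below 1 FPKM in the 4 libraries, and HELT was listed at 0 in each of them.

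Partners of HES7 in the segmentation clock followed more than one course. Of 8 such genes, 5 reached 1 FPKM, and DLL3, MESP2 and TBX6 rose from BC1 to APLNR+ and fell from APLNR+ to CD31+CD34+. Among all genes, 9.15% rose and 11.4% fell at these transitions, respectively. MESP2 was at 0.432, 64.7, 2.72 and 0.256 FPKM and TBX6 at 2.21, 17.5, 4.08 and 3.47 FPKM in the order of differentiation. The other 2 of the 5 were LFNG and RIPPLY2. LFNG, at 18.9, 1.72, 31.8 and 1.86 FPKM, was highest in CD31+CD34+, as was HES7. RIPPLY2 fell from 3.003 FPKM in BC1 to 0.244 FPKM in APLNR+ and was then listed at 0. HES7 was at 0.792 FPKM in APLNR+, where DLL3, MESP2 and TBX6 were highest, and reached 3.23 FPKM in CD31+CD34+.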
